A study of Homo sapiens with 10 samples.

Results

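The genes described here are 10 members of the xenobiotic cytochrome and aryl hydrocarbon receptor group. They were taken by name from the 33551 rows of the count table. They are the receptor gene AHR, its feedback genes AHRR and TIPARP, and the cytochrome P450 genes CYP1A1, CYP1B1, CYP2S1, CYP4F3, CYP4F11 and CYP24A1. The last is POR, which supplies electrons to the microsomal cytochromes. All 10 had a row and all 10 passed the filter on low counts. The cells were A549, an established human lung adenocarcinoma line. The 5 lines were wild type at ABCA3 (WT), a line whose label is ABCA3 knockout (KO), and 1 line each for the L101P, E292V and E690K variants of that gene. Every line was sequenced untreated and after overnight transduction with a VSV-G lentiviral vector that carries ABCA3 fused to GFP (LV-ABCA3:GFP), at a multiplicity of infection of 20. That makes 10 libraries, 1 for each line and treatment. The labels name no replicate cultures and 1 line stands for each genotype, so that genotype and line cannot be told apart, and p-values measure the spread between these libraries.

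The aryl hydrocarbon receptor is a ligand-activated transcription factor that binds planar aromatic compounds such as dioxins and the polycyclic hydrocarbons of smoke. With its partner ARNT it binds DNA at xenobiotic response elements and induces CYP1A1 and CYP1B1, which oxidise the same compounds, and AHRR and TIPARP, which restrain the receptor. Airway and alveolar epithelium meets such compounds through inhaled air, and A549 cells have long served as a model of this response.

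Sequences are shown for the promoters of CYP1A1, TIPARP and AHRR, receptor targets that had their lowest levels in the same line, E292V. None of these genes passed 0.05 in E292V against WT (main edgeR fit, adjusted p 0.732, 0.226 and 0.131). CYP2S1 was also lowest there and did pass (edgeR adjusted p 0.00884), but its window, not shown, did not hold the letters marked below. Each sequence shown is the 250 bases before a RefSeq start site in GRCh38.p14, 5′ to 3′ on the gene's own strand. Capitals mark GCGTG, the core of the xenobiotic response element, on either strand, which reads CACGC when it lies on the other strand. Where RefSeq lists several starts, the one nearest to the start of the GENCODE gene was taken. It lay 82 bases from that gene start in CYP1A1, 1355 in TIPARP and 17538 in AHRR.
CYP1A1, chr15:74725529-74725778, minus strand: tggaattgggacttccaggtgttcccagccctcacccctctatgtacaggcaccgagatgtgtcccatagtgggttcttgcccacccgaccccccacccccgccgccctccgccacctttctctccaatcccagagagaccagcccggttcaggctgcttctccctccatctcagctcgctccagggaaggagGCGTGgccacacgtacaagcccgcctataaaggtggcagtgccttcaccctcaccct
TIPARP, chr3:156674340-156674589, plus strand: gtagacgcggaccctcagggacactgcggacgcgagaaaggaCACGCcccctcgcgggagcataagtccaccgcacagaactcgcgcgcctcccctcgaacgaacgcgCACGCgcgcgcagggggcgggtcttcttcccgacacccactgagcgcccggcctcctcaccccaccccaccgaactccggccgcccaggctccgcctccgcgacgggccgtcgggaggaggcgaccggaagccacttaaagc
AHRR, chr5:321464-321713, plus strand: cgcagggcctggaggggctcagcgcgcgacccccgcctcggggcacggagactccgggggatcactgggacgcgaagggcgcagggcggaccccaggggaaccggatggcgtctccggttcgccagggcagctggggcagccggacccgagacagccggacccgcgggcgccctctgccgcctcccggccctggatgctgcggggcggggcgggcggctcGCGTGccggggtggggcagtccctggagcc

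The CYP1A1 window held 1 match, which began 57 bases before the start site, the TIPARP window held 2, at 208 and 142 bases, and the AHRR window held 1, at 30 bases. A second listed AHRR window held 2 matches, and the other listed TIPARP windows held no match. RefSeq windows were found for 7 of the 10 genes (11 windows), and 4 of the 11 had a match, against 32.2% of all 35116 promoter windows of the same length. The match is thus common among promoters, and the windows of AHR, CYP2S1, CYP4F3 and CYP4F11 did not hold these letters. No window was at hand for CYP1B1, CYP24A1 or POR.

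Before the genes themselves, the libraries were checked. L101P gave both the shallowest library (untreated, 59430095 counts) and the deepest (transduced, 96811421 counts). In the KO pair the labels and the targeted gene disagreed: ABCA3 stood at 600 CPM (counts scaled to library size) in the library labelled KO untreated and at 26.0 CPM in the library labelled KO transduced, and EGFP at 37.9 and 0.050 CPM. Vector results are therefore given with and without this pair, and directions that include it take its labels as given. In the other 4 lines EGFP was higher in the transduced library, but the untreated ones were not free of it: it was at 69.7 and 151 CPM in WT (untreated and transduced), 1.01 and 36.9 in L101P, 20.2 and 66.0 in E292V, and 16.5 and 18.5 in E690K. ABCA3 was lower in the transduced than in the untreated L101P library (922 against 1151 CPM) and higher in transduced WT, E292V and E690K. Untreated WT, at 356 CPM, had the lowest ABCA3 of the untreated libraries. The vector contrast is thus small by these measures in E690K, and the part of vector sequence in untreated libraries in the results was not tested. TDTOMATO, a second reporter row, had 0 counts in both KO libraries and 2.86 to 12.7 CPM in the others. Its part in the results was not tested either. Epithelial keratins were abundant, with KRT8 at 3673 CPM or more in every library, whereas 7 of 9 alveolar type 2 markers, among them SFTPC and NKX2-1, stayed under 1 CPM in all 10. All 4 endothelial and all 4 hepatocyte markers were also under 1 CPM throughout, as were 4 of 5 fibroblast markers (COL1A1 was the exception) and 3 of 5 leukocyte markers. Some markers moved with the lines. The 6 epithelial markers summed to 8352 and 7931 CPM in E292V, the lowest pair, and to 10562 and 15183 CPM in L101P. KRT19 alone was at 78.6 and 61.6 CPM in E292V, 137 and 138 in WT and 203 and 473 in L101P. COL1A1 was highest in E292V, at 72.3 and 116 CPM, against 14.2 to 44.9 CPM in the other 8 libraries. The summed leukocyte markers, mostly CD68, lay between 20.4 and 34.1 CPM in untreated and between 23.2 and 45.2 CPM in transduced libraries, and the part of these markers in the results was not tested.

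Levels between genes were compared per kilobase of annotated exon (RPKM). CYP24A1, the enzyme that inactivates vitamin D, was the most abundant member, with a median of 241 RPKM over the 10 libraries. CYP2S1, an extrahepatic family 2 enzyme, followed at 47.6, CYP1B1 at 30.9, POR at 21.2 and TIPARP at 15.3 RPKM. CYP4F3 (5.57), AHR (3.24), AHRR (1.81) and CYP4F11 (1.59 RPKM) were lower, and CYP1A1 was last at 0.224 RPKM. The AHR value uses 8081 exonic bases, of which 29.4% are shared with another annotated gene, AC019117.2, whose own row had 0 to 8 counts. The remaining levels are in CPM with TMM scaling (edgeR's trimmed mean of M-values), and are compared within a gene only.

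**Figure D1:**
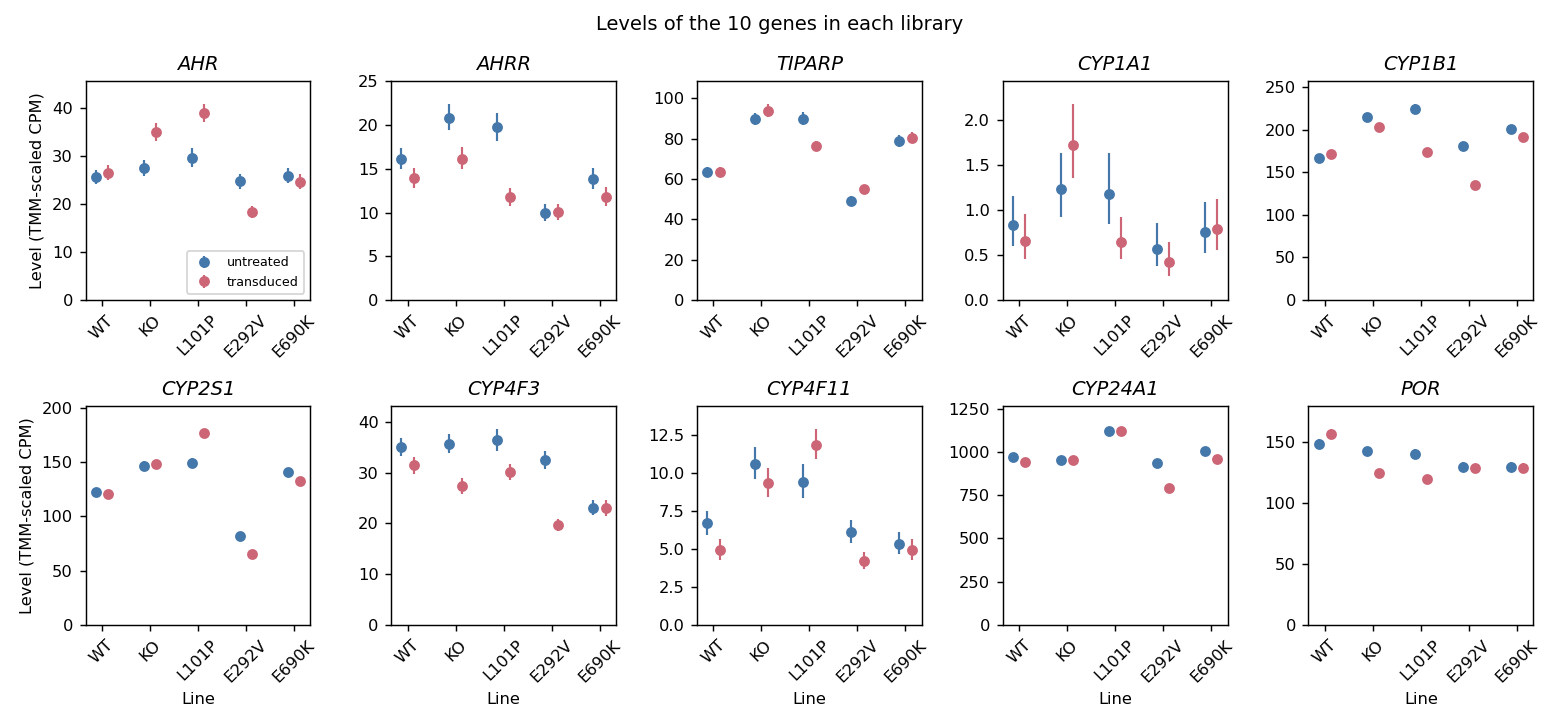
Levels of the 10 genes (vertical axes, TMM-scaled CPM from 0) in the untreated (blue) and transduced (red) library of each line (horizontal axes). Points are single libraries and bars are 95% Wilson intervals of the counting error. Both E292V points lie lowest for AHRR, TIPARP, CYP1A1, CYP2S1 and CYP24A1.

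The lines differed in 5 of the 10 genes. In 1 test per gene of any difference among the 5 lines (edgeR quasi-likelihood test, Benjamini-Hochberg adjustment over 17978 genes), CYP2S1 (adjusted p 2.4e-04), TIPARP (5.7e-04), CYP4F11 (0.00288), AHRR (0.0185) and CYP24A1 (0.0446) passed 0.05, where 13% of all tested genes did. CYP4F3 (adjusted p 0.0557), CYP1B1 (0.0625), AHR (0.0686), CYP1A1 (0.137) and POR (0.208) missed it in the same edgeR test. Without the KO pair CYP2S1, TIPARP and CYP4F11 still passed, with 9.45% of all tested genes. AHRR and CYP24A1 did not (edgeR adjusted p 0.110 and 0.0676). The AHRR call was also lost without the vector term (0.0767) and without the E292V pair (0.186, with a range of 2.2e-05 to 0.186 over its 10 alternatives). The CYP24A1 call was lost without the vector term (0.0629), with a minimum of 10 counts in every library (0.0519), and without the L101P (0.202), E292V (0.174) or E690K (0.0793) pair, with a range of 9.4e-04 to 0.202. CYP2S1 alone of the other calls was lost in 1 alternative, without the E292V pair (0.0534, range 2.1e-22 to 0.0534).

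AHR itself, on chromosome 7 from 16916359 to 17346152 (GRCh38, plus strand), encodes the receptor. Its RefSeq start site, at 17298652, lies 382293 bases from the start of that span. Its level was 25.6 CPM untreated and 26.5 transduced in WT, 27.5 and 34.9 in KO, 29.6 and 38.9 in L101P, 24.7 and 18.2 in E292V, and 25.9 and 24.7 in E690K. By their labels the untreated libraries lay within 24.7 to 29.6 CPM. Leaving the KO pair aside, the highest and the lowest level were both in transduced libraries, of L101P and E292V. Against WT the log2 fold changes were 0.39 (SE 0.16) in L101P, 0.26 (SE 0.16) in KO, -0.04 (SE 0.16) in E690K and -0.28 (SE 0.16) in E292V, with edgeR adjusted p from 0.215 to 0.929. None of these passed, although the L101P difference did with low counts kept (adjusted p 0.0393 in edgeR; range 0.0393 to 0.287). Of neighbouring lines in the order L101P, KO, WT, E690K, E292V, only KO and WT had pairs of libraries that did not overlap.

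AHRR, the repressor that competes with the receptor for ARNT, lies on chromosome 5 from 304176 to 438291. It stood at 16.1 and 13.9 CPM in untreated and transduced WT cells, 20.8 and 16.2 in KO, 19.7 and 11.7 in L101P, 9.96 and 10.0 in E292V, and 13.8 and 11.8 in E690K. The E292V pair was the lowest, and the highest value was in the library labelled KO untreated, followed by untreated L101P. The fitted difference of E292V from WT was -0.58 on the log2 scale (SE 0.16), which did not pass (edgeR adjusted p 0.131), and those of the other lines were 0.29 (SE 0.15) in KO, 0.04 (SE 0.16) in L101P and -0.23 (SE 0.16) in E690K. E292V against WT passed for AHRR under the DESeq2 Wald test (adjusted p 0.0293), with low counts kept (edgeR adjusted p 0.00837) and without the L101P pair (0.00727), in a range of 0.00727 to 0.315 over 8 alternatives. AHRR shares 244 exonic bases, 3.18% of its exons, with PDCD6 on the same strand, which had 6277 to 9889 counts.

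TIPARP encodes a mono-ADP-ribosyltransferase that modifies the receptor and lowers its activity, and lies on chromosome 3 from 156673235 to 156706770. It was at 63.6 CPM in both WT libraries, 89.6 and 93.9 CPM in KO, 89.8 and 76.1 in L101P, 49.2 and 54.8 in E292V, and 78.7 and 80.4 in E690K. No E292V library reached the WT level, and no KO, L101P or E690K library fell to it. TIPARP was higher than WT in KO with a log2 difference of 0.53 (SE 0.092, adjusted p 0.0139 in edgeR), a call kept in all 8 alternatives (adjusted p 2.2e-05 to 0.0446). It was also higher in L101P, by 0.38 (SE 0.092, 0.0392), which was lost on leaving out the KO (0.0706) or E690K pair (0.0797; range over alternatives 0.00321 to 0.0797). In E690K it was 0.32 (SE 0.092, edgeR adjusted p 0.0650) and in E292V -0.29 (SE 0.092, 0.226), neither of which passed. The E690K difference passed by DESeq2 (0.0169), without a filter on low counts (edgeR 0.0155) and without the L101P pair (0.00534; range 0.00534 to 0.104), and the E292V difference without the L101P pair (edgeR 0.0322; range 0.0322 to 0.371).

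CYP1A1 is the classical receptor target and the most sensitive transcript of the response. It lies on chromosome 15 (74719542 to 74725610, minus strand) and was near the lower end of detection, with 40 to 138 counts per library. Its levels were 0.836 CPM (95% interval 0.602 to 1.16) and 0.656 in untreated and transduced WT cells, 1.23 and 1.71 in KO, 1.17 and 0.649 in L101P, 0.567 and 0.416 in E292V, and 0.749 and 0.789 in E690K. The 2 KO libraries were the highest of the 10 and the 2 E292V libraries the lowest. The intervals at these counts are wide: that of the library labelled KO transduced reached from 1.35 to 2.17 CPM. The log2 fold change was 1.01 (SE 0.42) in KO and -0.60 (SE 0.43) in E292V against WT, with edgeR adjusted p of 0.297 and 0.732, so that neither difference passed.

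CYP1B1, a second receptor target that oxidises polycyclic hydrocarbons and oestrogens, lies on chromosome 2 (38066973 to 38109902, minus strand). It was far more abundant than CYP1A1 per length, at 30.9 against 0.224 RPKM in the median, and varied less. WT had 167 CPM untreated and 171 transduced, KO 215 and 203, L101P 224 and 174, E292V 181 and 135, and E690K 201 and 192. All untreated libraries of the other 4 lines were above untreated WT, and only the transduced E292V library was below both WT libraries. Log2 fold changes against WT ran from 0.30 (SE 0.10) in KO to -0.11 (SE 0.10) in E292V, with edgeR adjusted p from 0.192 to 0.812. The KO difference passed without a filter on low counts (0.0289) and without the L101P pair (0.0358; range 0.0289 to 0.323). Counting by strand is not stated, and 11.3% of the CYP1B1 exons overlap the antisense gene CYP1B1-AS1, whose row had 122 to 243 counts against 12973 to 16368 for CYP1B1.

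**Figure D2:**
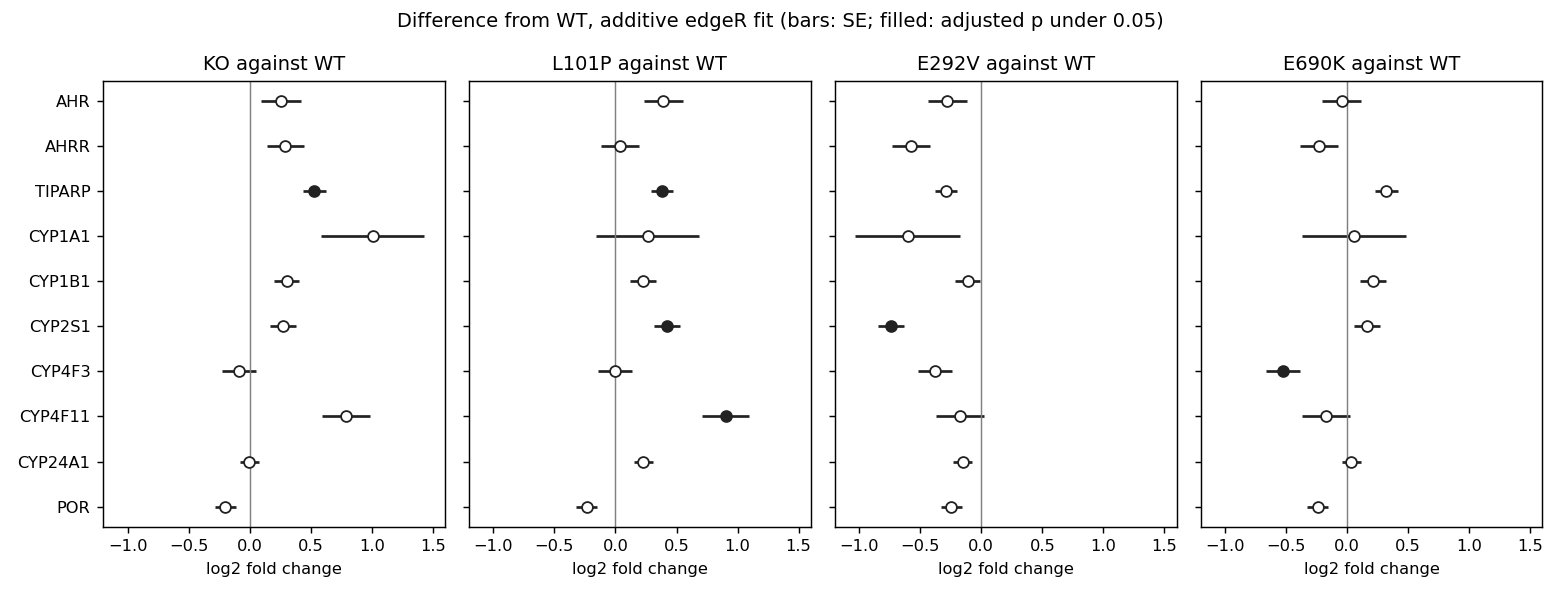
Log2 fold change of each gene against WT (horizontal axes) in the 4 other lines, from the additive fit of line and vector over 10 libraries. Points are estimates, bars their SE, and filled points have an edgeR adjusted p under 0.05. TIPARP is filled in KO and L101P, CYP2S1 in L101P and E292V on opposite sides of 0, CYP4F11 in L101P and CYP4F3 in E690K.

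CYP2S1, an enzyme of epithelia outside the liver that has been described as inducible through the receptor, showed the clearest separation of lines. It lies on chromosome 19 from 41193049 to 41207539. The E292V libraries had 81.7 CPM untreated and 65.1 transduced, WT 123 and 121, E690K 141 and 133, KO 147 and 148, and L101P 150 and 177. The pairs of the 5 lines did not overlap at any step of this order. In E292V the level was lower than in WT with a log2 difference of -0.74 (SE 0.11, adjusted p 0.00884 in edgeR), and this held in all 8 alternatives (5.1e-09 to 0.0438). In L101P it was higher by 0.42 (SE 0.11, edgeR adjusted p 0.0451), a call lost without the KO pair (0.0843), without the E690K pair (0.0973) and without the vector term (0.0542), in a range of 6.2e-04 to 0.0973. KO (0.27, SE 0.11, 0.250) and E690K (0.16, SE 0.11, 0.448) did not pass in edgeR, but KO passed without the L101P pair (0.0362; range 0.0362 to 0.342).

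CYP4F3 and CYP4F11 both lie on chromosome 19 and encode omega-hydroxylases of fatty acids. CYP4F3, from 15640897 to 15662825, hydroxylates leukotriene B4, and CYP4F11, from 15912367 to 15934867 on the other strand, also oxidises some drugs and vitamin K. Of the 50-base windows of their transcripts, 8.64% in CYP4F3 and 0.762% in CYP4F11 occur in another annotated gene, mostly CYP4F2, CYP4F8 or each other. How such reads were counted is not stated, so the CYP4F3 level is uncertain to that extent.

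The CYP4F pair ranked the lines differently. CYP4F11 had 9.41 and 11.9 CPM in L101P (untreated and transduced), 10.6 and 9.35 in KO, 6.68 and 4.93 in WT, 5.34 and 4.93 in E690K, and 6.12 and 4.19 in E292V. L101P and KO thus stood above the other 3 lines without overlap. CYP4F11 was higher than WT in L101P with a log2 difference of 0.90 (SE 0.20, adjusted p 0.0250 in edgeR), which was lost on leaving out the KO (0.0526) or E690K pair (0.0599; range 1.8e-04 to 0.0599). In KO it stood at 0.79 (SE 0.19), which did not pass (0.0641 in edgeR). The KO value passed in DESeq2 (adjusted p 0.0092) and in 3 edgeR alternatives, without the filter (0.00180), without L101P (0.00365) and without E292V (0.0458), in a range of 0.00180 to 0.122.

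CYP4F3 had 35.1 and 31.4 CPM in WT, 36.4 and 30.1 in L101P, 35.7 and 27.3 in KO, 32.5 and 19.7 in E292V, and 23.0 and 22.9 in E690K. Untreated, E690K lay apart below the other 4 lines, whereas among transduced libraries E292V was lowest. CYP4F3 was lower than WT in E690K with a log2 difference of -0.52 (SE 0.14, adjusted p 0.0488 in edgeR). This call was lost without the KO pair (0.0908), with DESeq2 size factors (0.0543) and without the vector term (0.155), in a range of 0.00110 to 0.155. E292V was at -0.38 (SE 0.14, 0.314), KO at -0.09 and L101P at -0.01 in the same edgeR fit.

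CYP24A1, on chromosome 20 (54153449 to 54173973, minus strand), hydroxylates and thereby inactivates the active form of vitamin D. It was at 973 and 943 CPM in WT, 953 and 957 in KO, 1121 and 1124 in L101P, 936 and 792 in E292V, and 1004 and 960.5 in E690K. Both L101P libraries were above, and both E292V libraries below, all others. The whole range was 1.42-fold, the second narrowest of the 10 genes after POR, and no contrast with WT passed: the log2 fold change was 0.23 (SE 0.078, edgeR adjusted p 0.132) in L101P and -0.15 (SE 0.078, 0.548) in E292V. The L101P difference passed under the DESeq2 Wald test (0.0445), in a range of 0.0445 to 0.201.

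POR encodes the flavoprotein reductase that passes electrons from NADPH to the microsomal cytochromes, and lies on chromosome 7 from 75899200 to 75986855. WT had 148 and 156 CPM, KO 142 and 124, L101P 140 and 119, E292V 129 and 128, and E690K 129 in both. The WT pair was above the 8 other libraries. The 4 log2 fold changes against WT lay between -0.24 and -0.20 (SE 0.085 each) and none passed (edgeR adjusted p 0.137 to 0.306). They share the WT libraries, so that they are not independent of each other. Only in E690K, and only without the L101P pair, did the POR difference pass (0.0437; range 0.0437 to 0.213).

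Seen by line, the E292V estimates lay on the low side. All 10 fitted log2 fold changes of E292V against WT were below 0, with a median of -0.28, where 50.2% of all tested genes were below 0 and their median was -0.00065. Of the 10, 1 passed (CYP2S1), beside 1.05% of all tested genes. Both E292V libraries were below the 8 others for 5 of the 10 genes (CYP1A1, CYP24A1, CYP2S1, AHRR and TIPARP), a position held by 8.14% of all tested genes. The genes were chosen with earlier results known and most move together across libraries, so these counts are descriptions. For POR the Pearson r with the other members ran only from -0.25 (AHR) to 0.52 (CYP4F3).

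KO and L101P lay on the other side. In KO, 7 of 10 fold changes were above 0, with a median of 0.28, and 1 passed (TIPARP), beside 1.8% of all tested genes. In L101P, 8 were above 0, with a median of 0.25, and 3 passed (TIPARP, CYP2S1 and CYP4F11), beside 3.94%. Without the KO pair, and likewise without the E690K pair, 0 of the 10 passed in L101P by edgeR, beside 2.47% and 2.06% of all tested genes. In edgeR, 6 of the 10 L101P differences had an unadjusted p under 0.05, beside 18.3% of all tested genes, and by DESeq2 4 passed, beside 6.83%. In E690K, 5 fold changes were above 0 and 5 below, with a median of -0.0043, and 1 passed (CYP4F3), beside 5.38%. Of all tested genes, 52.3% were below 0 in KO, 52.4% in L101P and 52.6% in E690K. Their medians were -0.012, -0.014 and -0.017. Both KO libraries were above the 8 others for 1 gene (CYP1A1; 2.24% of all tested genes), both L101P libraries for 2 (CYP24A1 and CYP2S1; 2.51%) and both WT libraries for 1 (POR; 2.75%). None of the 10 held the other 6 such positions, which were held by 1.99% (WT below), 2.65% (KO below), 3.07% (L101P below), 7.49% (E292V above), 4.73% (E690K below) and 4.53% (E690K above) of all tested genes.

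The vector was then considered over the 5 lines, with line as a block. None of the 10 genes passed, and 0 of 17978 genes did (0%) by edgeR, where 1236 had an unadjusted p under 0.05. DESeq2 called 118 genes, with 0 of the 10 among them. In edgeR the unadjusted p was under 0.05 for 3 of the 10: CYP4F3 (log2 fold change -0.31, SE 0.088, adjusted p 0.405), AHRR (-0.31, SE 0.099, 0.469) and CYP1B1 (-0.18, SE 0.066, 0.594). The fold change was below 0 for 8 of the 10, with a median of -0.13, where 49.7% of all tested genes were below 0 and their median was 0.00085.

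By the labels CYP4F3 was lower in the transduced library in 5 of 5 lines, and in 4 of 4 with the KO pair left out, with log2 differences of -0.73 in E292V, -0.39 in KO, -0.27 in L101P, -0.16 in WT and -0.0063 in E690K. Without the KO pair its fold change was -0.29 (edgeR adjusted p 0.890), and without a filter on low counts it passed (-0.31, adjusted p 0.0121; range 0.0121 to 1.00). AHRR was lower in 4 of 5 lines, and in 3 of 4 with the KO pair left out, most in L101P (-0.75), and was at 0.013 in E292V. The fitted AHRR change was -0.29 without the KO pair (edgeR adjusted p 0.921) and -0.20 without the L101P pair (0.413), in a range of -0.39 to -0.20 with 1 pair left out.

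For the other genes the differences varied in sign or size by line. CYP1A1 differed by -0.85 in L101P and 0.48 across the pair labelled KO, and its fitted change moved from -0.21 to -0.39 without that pair (edgeR adjusted p 0.948 and 1.00). AHR differed by 0.40 in L101P and 0.34 in KO but -0.44 in E292V, and its fitted change of 0.06 (SE 0.10) turned to -0.012 without the KO pair. CYP2S1 (0.24 against -0.33) and CYP4F11 (0.34 against -0.54) also differed in sign between L101P and E292V. These differences between lines were not tested, since each rests on 1 library a side. Without the KO pair CYP1B1 was at -0.20, CYP4F11 at -0.19, CYP24A1 at -0.085, CYP2S1 at -0.047, POR at -0.042 and TIPARP at -0.011, and none passed in edgeR (adjusted p 0.917 to 1.00).

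**Figure D3:**
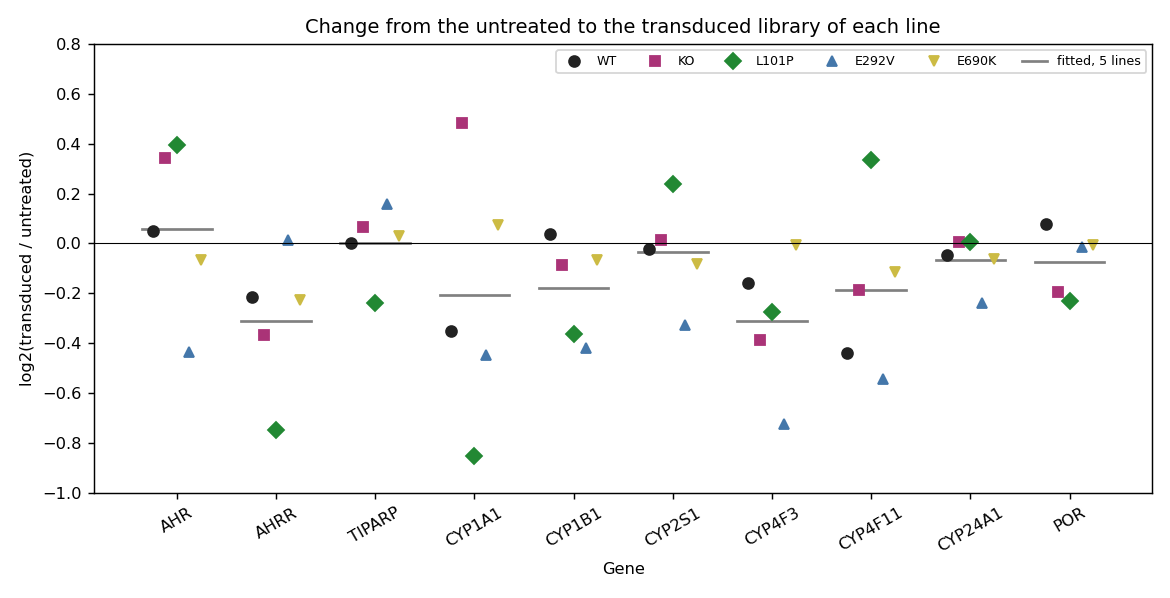
Log2 ratio of the transduced to the untreated library (vertical axis) for each gene (horizontal axis) and line (symbols). Grey bars give the fitted change over the 5 lines. For CYP4F3 all 5 symbols lie below 0, 4 of 4 without KO, whose labels its ABCA3 and EGFP levels go against. The symbols of AHR, CYP2S1 and CYP4F11 are split between L101P above and E292V below 0.

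Related genes were taken from lists on the same pathways. Their calls, here and under the other observations, are from the main edgeR fit and were not followed over the alternatives. Of 11 genes of the receptor complex and its partners, which include ARNT and the chaperones that hold the receptor in the cytoplasm, 1 differed among the lines, against 13% of all tested genes. This was RELB, an NF-kB subunit that can pair with the receptor, higher than WT in E690K with a log2 difference of 0.53 (SE 0.095, adjusted p 0.00691 in edgeR). ARNT kept within 53.3 to 64.9 CPM over the 10 libraries, and HSP90AA1 within 2552 to 2926 CPM.

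Among 14 other receptor targets, 11 could be tested and 5 differed among the lines in edgeR, against 13% of all tested genes. ALDH3A1, an aldehyde dehydrogenase, had 1393 and 1135 CPM in WT, 2079 and 2023 in KO, 2155 and 2708 in L101P, 1002 and 619 in E292V, and 1962 and 1813 in E690K, and was higher than WT in L101P (0.96, SE 0.17, adjusted p 0.00886). ABCG2, an exporter of drugs and porphyrins, was at 65.3 and 58.5 CPM in WT and 52.3 and 38.3 CPM in E292V, lower with a log2 difference of -0.46 (SE 0.093, adjusted p 0.0374 in edgeR). Both genes had their lowest pair in E292V, as AHRR, TIPARP, CYP1A1 and CYP2S1 did. For ALDH3A1 the log2 difference of E292V from WT was -0.65 (SE 0.16) and did not pass (edgeR adjusted p 0.0993). SLC7A5, an amino acid transporter that also differed among the lines (edgeR adjusted p 0.0384), had its highest pair there, at 1813 and 1629 CPM against 1030 to 1502 CPM elsewhere, with a log2 difference from WT of 0.26 (SE 0.11, 0.409). NQO1, a quinone reductase (0.0248 among the lines in edgeR), was at 846 and 823 CPM in E292V and 868 and 825 CPM in E690K. PTGS2, the inducible cyclooxygenase, did not follow that order: it was lowest in the untreated L101P library (13.4 CPM) and in transduced E690K (14.1), and highest in untreated KO (33.4). CYP1A2 had at most 8 counts in any library, and SERPINB2 and IDO1 had 0 in all 10.

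Of 29 other cytochromes of families 1 to 4, 22 stayed under 1 CPM in every library, 15 could be tested and 3 differed among the lines (CYP3A5, CYP4F12 and CYP4V2), a share near the 13% of all tested genes. CYP3A5, a drug-metabolising enzyme of lung and gut, stood at 5.00 and 4.36 CPM in WT, 12.01 and 16.3 in KO, 8.28 and 14.9 in L101P, 3.22 and 2.70 in E292V, and 7.37 and 5.65 in E690K. It was higher than WT in KO (log2 fold change 1.59, SE 0.25, edgeR adjusted p 0.00877) and L101P (1.29, SE 0.25, 0.0158). CYP3A4, the chief drug oxidase of the liver, had 2 to 18 counts.

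Of 10 genes that supply electrons or handle haem, 2 differed among the lines, HMOX1 and CYB5B, a share near the 13% of all tested genes, and no called difference from WT was upward. HMOX1, which degrades haem, fell from 391 and 382 CPM in WT to 256 and 155 in KO, 237 and 160 in L101P, and 200 and 219 in E690K, on the log2 scale by -0.93, -0.98 and -0.88 (SE 0.20 each), with edgeR adjusted p of 0.0354, 0.0179 and 0.0232. CYB5B and CYB5A, both cytochromes b5, were lower in E690K by -0.46 (SE 0.084, edgeR adjusted p 0.00716) and -0.51 (SE 0.12, 0.0237). Of 8 xenobiotic and related nuclear receptors, 7 could be tested and 2 differed, against 13% of all tested genes. NR3C1, the glucocorticoid receptor, was higher than WT in KO (0.34), L101P (0.36) and E690K (0.32), with SE 0.072 each and edgeR adjusted p of 0.0389, 0.0182 and 0.0255. HNF4A, a hepatocyte and gut factor, was at 128 CPM in the transduced E292V library, against 62.7 to 88.7 CPM in the other 9. NR1I2, the pregnane receptor, had at most 8 counts.

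**Figure D4:**
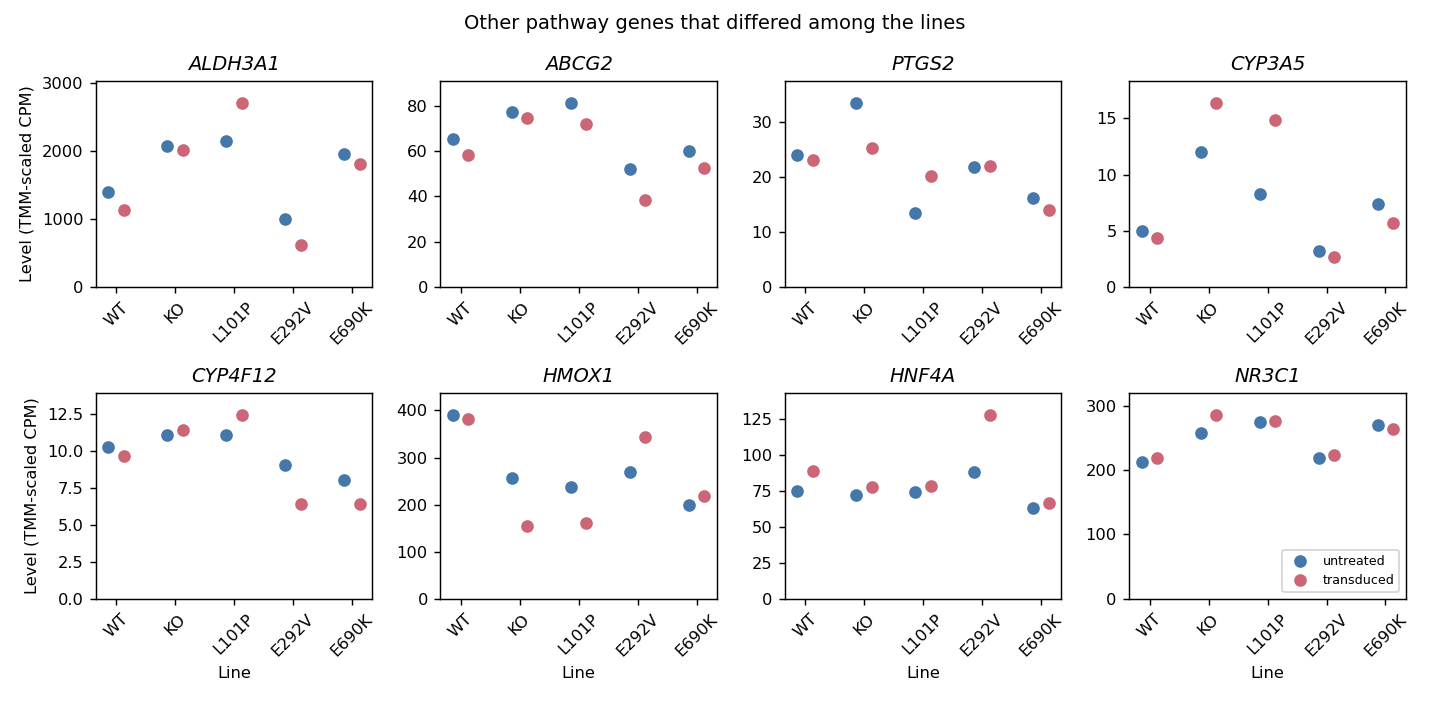
Levels of 8 related genes (vertical axes, TMM-scaled CPM from 0) in the untreated (blue) and transduced (red) library of each line (horizontal axes), 1 point for each library. ALDH3A1, ABCG2 and CYP3A5 have their lowest pair in E292V, HMOX1 its highest values in WT, and NR3C1 its lower values in WT and E292V.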

How the data were processed

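RNA was sequenced from 10 libraries of A549 cells. The authors deposited a table of read counts per gene, without normalization. The submitters' processing notes name featureCounts, Subread, edgeR, limma and GRCh38. Strand setting and annotation are not given in the sources used here. Of counts from 1 to 10, 81.4% were even, so intervals (Wilson, 95%) were computed on counts divided by 2. They cover counting error only. Depth ranged from 59430095 to 96811421 counts.

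Genes passing filterByExpr (17978) were fitted with edgeR 4.0.16 in R 4.3.3 (TMM factors, quasi-likelihood test, line and vector as terms, 4 residual degrees of freedom). P-values were adjusted by Benjamini-Hochberg over all of them, with a threshold of 0.05. SE is the fold change over the root of F. On simulated data (17978 genes, 100 changed 2-fold and 100 4-fold), the vector test recovered 88% and 95%, with 8 false calls among 191. The KO test recovered 79% and 93%, with 10 false calls among 182. Recovery in the measured libraries was not tested. Alternatives were DESeq2 1.42.0 (size factors, DESeq2 test), a minimum of 10 counts in every library, no filter, no line block or no vector term, and each line's pair left out. The DESeq2 test was the Wald test for single contrasts and the likelihood-ratio test for any difference among the lines. Libraries of 1 line deviated together (r from 0.409 to 0.824 over 11969 genes), and the pairing comes from the line labels.

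The members and lists were chosen with earlier results of these data known. All 10 members were named, and from each list at most the 3 genes with the smallest adjusted p among those differing between lines. ARNT, HSP90AA1, CYB5A, CYP1A2, SERPINB2, IDO1, CYP3A4, NR1I2, VDR, SLC7A5, NQO1, KRT8, KRT19, COL1A1 and CD68 fall outside that rule and were chosen after their values were seen. Gene positions and exons are from GENCODE 29 (GRCh38) and promoters from RefSeq (GRCh38.p14). One gene with a pattern like that of CYP2S1 is not reported here.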

Additional observations from a re-analysis of the deposited data

Results flagged for a closer look

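In 30 sets of 5 values (each gene untreated, transduced and as the change with vector), 4 had 1 value far from the others, with a gap to the nearest of more than 0.71 of the range. Chance gives about 1 in 20 where the 5 values come from 1 normal population. Here the values are from different lines and the sets share libraries, so that rate does not apply directly. CYP1A1 in the library labelled KO transduced stood at 1.71 CPM, with a gap of 0.713 of the range. CYP4F3 in untreated E690K stood at 23.0 CPM, with a gap of 0.7102 of the range. The log2 change of CYP24A1 with vector in E292V was -0.24, with a gap of 0.716 of the range. POR in transduced WT stood at 156 CPM, with a gap of 0.746 of the range.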

How the results depend on the processing

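As no library had a replicate, the error is the departure from additivity of line and vector, and counts of called genes moved with the setting. By the DESeq2 test, the calls for the vector, KO, L101P, E292V and E690K were 118, 740, 1227, 429 and 1463, against 0, 323, 709, 189 and 967 by edgeR. With no filter on low counts the calls were 237, 982, 1437, 662 and 1659, and 3661 among the lines, against 2337. Without the vector term KO had 165. With no replicate block (line left out as a block) the vector count was 0, as with it. With each line's pair left out in turn, the counts ranged from 0 to 133 for the vector, 147 to 1120 for KO, 367 to 732 for L101P, 57 to 689 for E292V, 639 to 1993 for E690K and 931 to 3731 among the lines. The lowest count fell to leaving out the E690K pair in KO, L101P and E292V, the KO pair in E690K and the E292V pair among the lines. The highest fell to leaving out the L101P pair for the vector, KO, E292V, E690K and among the lines. The cause was not tested. The fold changes that turned sign were all near 0: TIPARP with vector (-0.00066 with at least 10 counts in every library, -0.0079 with no replicate block), CYP2S1 with vector (0.0040 with no replicate block), CYP24A1 in KO (0.00085 with DESeq2 size factors and by the DESeq2 test) and CYP4F3 in L101P (0.0052 and 0.0050). With a pair left out they ranged from -0.039 to 0.066 for TIPARP, -0.024 to 0.18 for AHR and -0.10 to 0.033 for CYP2S1 with vector, 0.0021 to 0.0040 for CYP24A1 in KO and 0.00042 to 0.0025 for CYP4F3 in L101P. Depth limits CYP1A1, at 40 to 138 counts.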

Other observations

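Of 18 genes for sterol, retinoid and prostanoid cytochromes, 9 could be tested and 3 differed among the lines (edgeR), against 13% of all tested genes: TBXAS1, CYP26A1 and CYP26B1. TBXAS1, thromboxane synthase, had 8.91 and 12.6 CPM in WT (untreated and transduced), 14.9 and 20.0 in KO, 14.0 and 21.9 in L101P, 8.61 and 7.82 in E292V, and 9.88 and 11.2 in E690K. It was higher than WT in L101P with a log2 difference of 0.73 (SE 0.17, adjusted p 0.0298 in edgeR), and in KO it was at 0.70 (SE 0.17, 0.0557). CYP26A1, which clears retinoic acid, had the opposite order, with its highest pair in E292V (3.28 and 2.96 CPM) and its lowest in KO (0.800 and 0.994 CPM). No CYP26A1 difference from WT passed in edgeR (adjusted p 0.355 in E292V and 0.110 in KO).

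Of 10 genes of the vitamin D axis, 5 could be tested and 2 differed among the lines, DHCR7 and CD14, against 13% of all tested genes. DHCR7, a reductase that uses up the precursor of vitamin D, had 120 and 116 CPM in WT, 102 and 84.9 in KO, 92.5 and 83.8 in L101P, 122 and 137 in E292V, and 81.3 and 84.6 in E690K. It was lower than WT in L101P (log2 difference -0.42, SE 0.095, adjusted p 0.0294 in edgeR) and in E690K (-0.51, SE 0.095, 0.00870). VDR, the receptor that drives CYP24A1, lay within 7.40 to 11.9 CPM and did not pass among the lines (edgeR adjusted p 0.259).

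Among 11960 genes compared over the 10 libraries, IGFBP2, which encodes a binding protein of insulin-like growth factors, followed CYP2S1 with a Pearson r of 0.988. IGFBP2 had 40.0 and 26.4 CPM in E292V (untreated and transduced) and 79.7 and 100.4 CPM in L101P. For the other members the closest genes were PDLIM5 (0.978) for AHR, SELENBP1 (0.968) for CYP4F11, CHRAC1 (0.965) for TIPARP and ZNRF3 (0.961) for AHRR. For CYP1B1, CYP24A1, CYP1A1, CYP4F3 and POR they were TIMELESS (0.950), NOTCH3 (0.947), MRPS35 (0.937), AP001816.1 (0.937) and LINC01186 (0.918). The points share lines and libraries, so these values are descriptions.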
